A study of Mus musculus with 6 samples.

Results

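The mitochondrial genome is a small circle of DNA that cells keep apart from the nuclear chromosomes. It encodes core subunits of the respiratory chain and of ATP synthase, the ribosomal RNAs of the mitochondrial ribosome and a set of transfer RNAs, and the remaining subunits of those complexes come from nuclear genes. Both of its strands are transcribed into long precursors, which are cut at the transfer RNAs into single RNAs, and most of the messenger RNAs then receive a short poly(A) tail. Members were all rows of the deposited table whose symbol begins with mt-, 37 of 55291 rows, and comprised 13 protein-coding, 2 rRNA and 22 tRNA genes. The cells were BMDM, macrophages that are grown from mouse bone marrow in culture. In all, 3 poly(A) RNA libraries came from BMDM without apoptotic cell (AC) treatment and 3 from BMDM with AC treatment. The labels name no strain, genotype or age, and the origin, amount and exposure time of the apoptotic cells are not stated in them. Libraries with AC treatment are called AC pretreated below.

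Levels are TPM (reads per base of exon as a share of the library), rescaled so that each library sums to 1000000. The libraries held 19044752 to 32218668 reads that could be recovered from the deposited values, 150934 to 228717 of them on mitochondrial genes (0.641% to 0.994%). Whether the replicates were separate cultures or mice is not stated, so a p-value here covers only the spread among these 6 libraries, which may be technical. In bulk RNA, fewer cells of a type and less RNA per cell cannot be told apart. Nor can RNA of the macrophages and of any apoptotic cells left with them. All 10 macrophage markers were present at 1 TPM or more in some library. Their summed level was 17214 to 25339 TPM without and 23477 to 27134 TPM with AC pretreatment, with the lysozyme gene Lyz2 at 83.7 TPM in untreated replicate 1 and at 9270.5 TPM or more elsewhere. Replicates 1 and 2 of both groups held transcripts of placental trophoblast, at a summed level of 10.6 and 19.8 TPM without and 17.5 and 91.4 TPM with AC pretreatment for 6 markers, while all 6 were at 0 in replicate 3 of both groups. The small RNA gene Gm23935 took 73936 TPM in AC replicate 3 and 9648 to 13452 TPM in the other libraries.

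The members fell into an abundant and a scarce set, and the scarce protein-coding genes all came from 1 stretch of the mitochondrial genome. Animal nuclear genomes carry pieces of mitochondrial DNA that were inserted during evolution, and such pieces resemble their source. Each mitochondrial transcript was therefore aligned with all annotated nuclear transcripts of mm10 (GENCODE release 21 for mouse). A run of 7 pseudogenes on chromosome 1 (24611535 to 24616197, minus strand) matched genes between mitochondrial positions 6394 and 11042, in the same order. That stretch of 4649 bases wholly contains 11 members (6 protein-coding and 5 tRNA genes) and parts of mt-Co1 and mt-Nd4. Sequences from 3 pairs are printed because they show how close a nuclear copy lies in that stretch and outside it, with bases that differ within the pair in capitals. In the first 120 bases of mt-Co2 (chrM:7013-7132, plus strand) and Gm28661 (chr1:24615446-24615565, minus strand) no base differed.
mt-Co2: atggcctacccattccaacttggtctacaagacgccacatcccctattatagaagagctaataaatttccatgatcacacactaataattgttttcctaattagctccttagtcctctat
Gm28661: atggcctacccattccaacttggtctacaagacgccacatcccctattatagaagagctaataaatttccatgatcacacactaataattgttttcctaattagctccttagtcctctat
In the first 120 bases of mt-Nd3 (chrM:9459-9578, plus strand) and Gm28438 (chr1:24613000-24613119, minus strand) 1 base differed, T3C, counted from the first base of mt-Nd3.
mt-Nd3: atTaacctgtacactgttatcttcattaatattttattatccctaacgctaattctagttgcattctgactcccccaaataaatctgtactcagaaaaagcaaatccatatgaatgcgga
Gm28438: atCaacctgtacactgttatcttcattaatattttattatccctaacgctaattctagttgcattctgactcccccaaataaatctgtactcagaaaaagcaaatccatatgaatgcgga
In 120 bases of mt-Cytb (chrM:14245-14364, plus strand), which lies outside the stretch, and its closest annotated nuclear relative Gm11410 (chr4:80004089-80004208, plus strand) 9 bases differed.
mt-Cytb: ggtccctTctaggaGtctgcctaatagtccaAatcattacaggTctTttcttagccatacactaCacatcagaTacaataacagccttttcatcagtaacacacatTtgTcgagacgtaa
Gm11410: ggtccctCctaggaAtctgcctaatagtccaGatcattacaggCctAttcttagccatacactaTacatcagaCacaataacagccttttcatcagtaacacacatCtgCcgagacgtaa

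Within the stretch, the annotated copies were as close over their whole aligned lengths. The parts between the annotated pseudogenes, which correspond to mt-Atp8 and the 5 tRNA genes, could not be compared with chromosome 1. mt-Co2, mt-Atp6, mt-Co3 and mt-Nd4l were identical to Gm28661, Gm10925, Gm28437 and Gm10222 over 681, 678, 783 and 294 bases, which is all but their last 1 to 3 bases. The identical stretch of mt-Co2 also matched the pseudogene Gm13341 in runs of at least 150 bases. mt-Nd3 differed from Gm28438 at 1 of 345 bases. Of mt-Nd4, the first 876 of 1378 bases were identical to Gm28439, and of mt-Co1, the last 479 of 1545 bases were identical to Gm29216. The other protein-coding and rRNA genes had no identical run as long as the 150-base reads of the labels: the longest were 129 bases in mt-Nd2, 95 in mt-Nd5, 65 in mt-Rnr2, 47 in mt-Cytb, 39 in mt-Nd6 and 19 in mt-Nd1, and mt-Rnr1 had no match. Pseudogenes on chromosome 2 were closer to mt-Co1 and mt-Nd2 than Gm11410 was to mt-Cytb. Gm13340 aligned with all 1545 bases of mt-Co1 at 97.6% identity, with a longest identical run of 148 bases. Gm13339 aligned with 510 bases of mt-Nd2 at 96.67% identity, and Gm11410 with 1142 bases of mt-Cytb at 92.91%. mt-Atp8 lies between mt-Co2 and mt-Atp6 in the stretch, and its longest run was 43 bases, where it overlaps mt-Atp6.

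**Figure D1:**
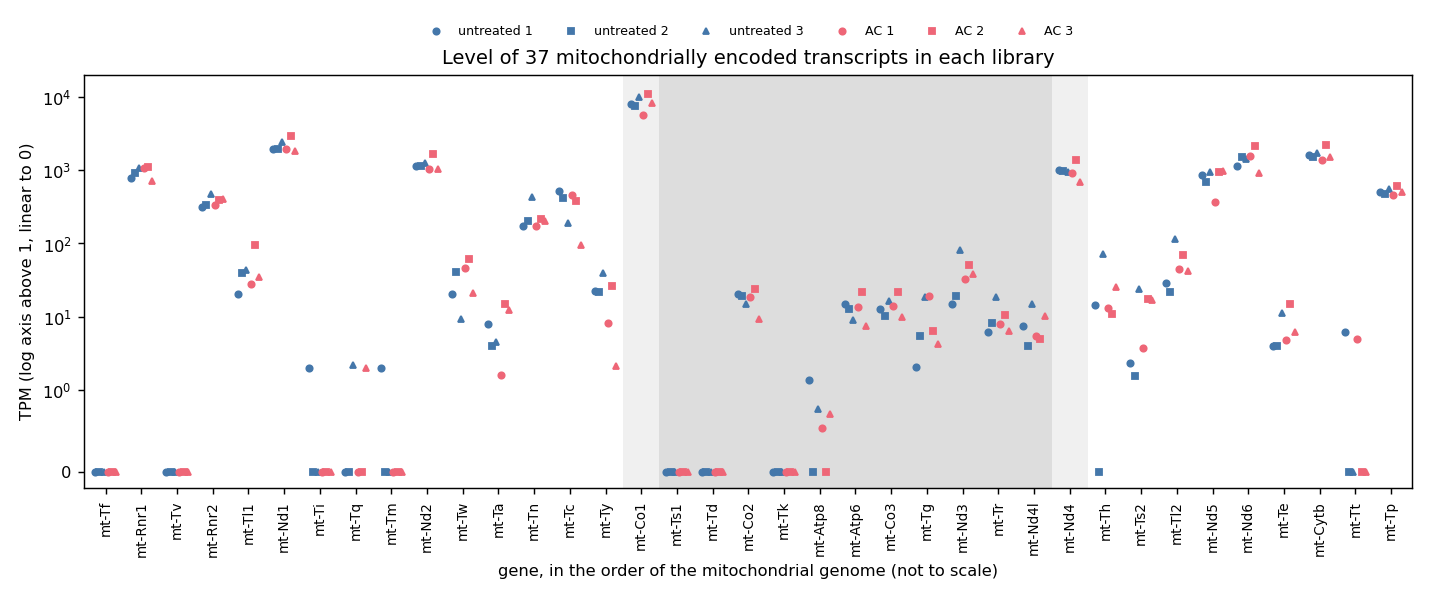
Level of each of the 37 genes in TPM (vertical axis, logarithmic above 1 and linear down to 0), in the order of the mitochondrial genome, with 1 point per library (blue, untreated; red, AC pretreated; circle, square and triangle, replicates 1, 2 and 3). Dark shading marks genes wholly inside the stretch matched by chromosome 1 pseudogenes, where no library exceeded 80.5 TPM. Among them, mt-Atp8 and the 5 tRNA genes could not be compared with chromosome 1. Light shading marks the 2 genes partly inside the stretch.

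The most abundant member was mt-Co1 (mitochondrial positions 5328 to 6872), which encodes the catalytic core subunit of cytochrome c oxidase, respiratory complex IV. It stood at 8035, 7467 and 9932 TPM in untreated replicates 1, 2 and 3 and at 5678, 10720.1 and 8131 TPM in AC replicates 1, 2 and 3. The lowest and the highest library were both AC pretreated, and mt-Co1 was 13th of all rows by its mean over 6 libraries. The other complex IV subunits encoded here had far lower levels. mt-Co2 (7013 to 7696), the subunit that takes electrons from cytochrome c, stood at 20.3, 19.03 and 15.1 TPM without and at 18.9, 24.0 and 9.25 TPM with AC pretreatment (replicates 1, 2 and 3). mt-Co3 (8607 to 9390), a further core subunit, stood at 12.95, 10.2 and 16.4 TPM and at 14.1, 22.0 and 10.1 TPM. Over all 6 libraries, the deposited levels of these subunits of 1 enzyme complex averaged 8327 ± 1799 TPM for mt-Co1, 17.8 ± 5.05 TPM for mt-Co2 and 14.3 ± 4.48 TPM for mt-Co3 (SD, n = 6).

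Genes of complex I, the NADH dehydrogenase, showed the same division. mt-Nd1 (2751 to 3707), a membrane subunit, stood at 1945, 1920.2 and 2379 TPM without and at 1911, 2901 and 1806 TPM with AC pretreatment (replicates 1, 2 and 3). mt-Nd2 (3914 to 4951) stood at 1144, 1123 and 1267 TPM and at 1020.1, 1640.3 and 1039.9 TPM. For both genes, AC replicate 2 was the highest library and the other AC libraries lay below every untreated one. mt-Nd5 (11742 to 13565), a proton-pumping subunit, stood at 849, 685 and 944 TPM and at 367, 943 and 980.0 TPM, so that AC replicate 1 lay below all other libraries. mt-Nd4 (10167 to 11544) stood at 999.5, 964 and 943 TPM and at 922, 1372 and 679.8 TPM. Its untreated libraries were close together, and its AC libraries lay on both sides of them. If all of its reads came from the 502 bases outside the repeated part, mt-Nd4 would have a mean of 2690.4 TPM over 6 libraries in place of 980.1 TPM, and mt-Co1, over 1066 such bases, 12069 TPM in place of 8327 TPM. The complex I genes wholly inside the stretch were low. mt-Nd3 (9459 to 9806) stood at 14.8, 19.4 and 80.5 TPM without and at 32.3, 50.9 and 38.4 TPM with AC pretreatment (replicates 1, 2 and 3), with untreated replicate 3 above all other libraries. mt-Nd4l (9877 to 10173), whose reading frame overlaps that of mt-Nd4, had 10 to 28 reads per library and 4.04 to 14.8 TPM.

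mt-Nd6 (13552 to 14070) is the protein-coding gene of the light strand, the strand opposite to the one that carries all other protein-coding members. It stood at 1147, 1491 and 1405 TPM without and at 1571, 2162.5 and 919.8 TPM with AC pretreatment (replicates 1, 2 and 3), with the highest and the lowest value both in AC libraries. The strand setting of the counting is not given, so heavy-strand precursor reads over mt-Nd6 cannot be told apart from its own. mt-Cytb (14145 to 15288), which encodes the cytochrome b subunit of complex III, stood at 1625, 1494 and 1736 TPM and at 1363, 2211 and 1493 TPM. Its highest and lowest libraries were again AC replicates 2 and 1. Of the ATP synthase genes, mt-Atp6 (7927 to 8607), which encodes the subunit of the proton channel, stood at 15.1, 12.6 and 9.20 TPM and at 13.8, 21.9 and 7.60 TPM. mt-Atp8 (7766 to 7969), a small accessory subunit whose end overlaps mt-Atp6, had 5 reads in all 6 libraries together and 0 to 1.36 TPM.

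**Figure D2:**
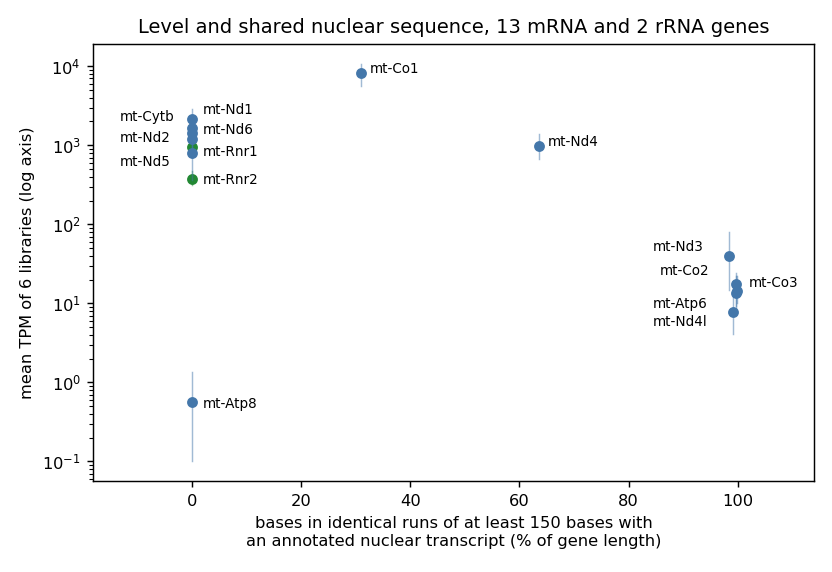
Mean level over 6 libraries (TPM, logarithmic axis) of the 13 protein-coding (blue) and 2 rRNA genes (green) against the share of each gene that lies in identical runs of at least 150 bases with an annotated nuclear transcript, with lines from the lowest to the highest library (drawn from 0.1 TPM for mt-Atp8, whose lowest was 0). The 5 genes repeated over 98.3% to 99.9% of their length had means of 7.83 to 39.4 TPM, and mt-Atp8, for which no such annotated transcript was found, stood at 0.563 TPM.

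In order of mean level over the 6 libraries, mt-Co1 was followed by mt-Nd1, mt-Cytb, mt-Nd6, mt-Nd2, mt-Nd4, mt-Rnr1, mt-Nd5 and mt-Rnr2. The 6 protein-coding genes wholly inside the stretch came last. mt-Co1 exceeded mt-Nd1 in 6 of 6 libraries, and mt-Nd1 exceeded mt-Cytb in 6 of 6. mt-Cytb and mt-Nd6, and likewise mt-Nd6 and mt-Nd2, kept this order in 5 of 6, mt-Nd4 and mt-Rnr1 in 3 of 6 and mt-Rnr1 and mt-Nd5 in 4 of 6, so those neighbours were not set apart by their spread. mt-Rnr2, the lowest of the upper set at 313 to 467 TPM, exceeded mt-Nd3, the highest of the lower set, in 6 of 6 libraries. The 9 genes of the upper set held 99.3% to 99.5% of all mitochondrial reads, and the 6 of the stretch 0.166% to 0.262%. The order of deposited levels is across genes within the same libraries, and how reads that fit several places were treated is not given. Its part in the low levels of the repeated genes was not tested.

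The chromosome 1 copies had low values too. Gm28661 stood at 49.0, 36.7 and 23.0 TPM without and at 35.6, 43.9 and 12.0 TPM with AC pretreatment (replicates 1, 2 and 3), above mt-Co2 in 6 of 6 libraries. Gm10925 averaged 1.32 times mt-Atp6 and was above it in 6 of 6 libraries. Gm28437 averaged 0.777 times mt-Co3, with 40 to 104 reads per library. For mt-Nd3, whose copy carries T3C, Gm28438 had 1 to 8 reads per library against 37 to 179 for mt-Nd3, and for mt-Nd4l, Gm10222 had 2 to 9 reads against 10 to 28. The diverged copies of mt-Nd5, mt-Nd6 and mt-Cytb on chromosome 4 (Gm11407, Gm11408 and Gm11410) had 0 reads in every library, which allows up to 3 reads in a library by counting error alone. Values of mt-Co2, mt-Atp6, mt-Co3, mt-Nd3 and mt-Nd4l and of their copies are uncertain for these reasons.

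**Figure D3:**
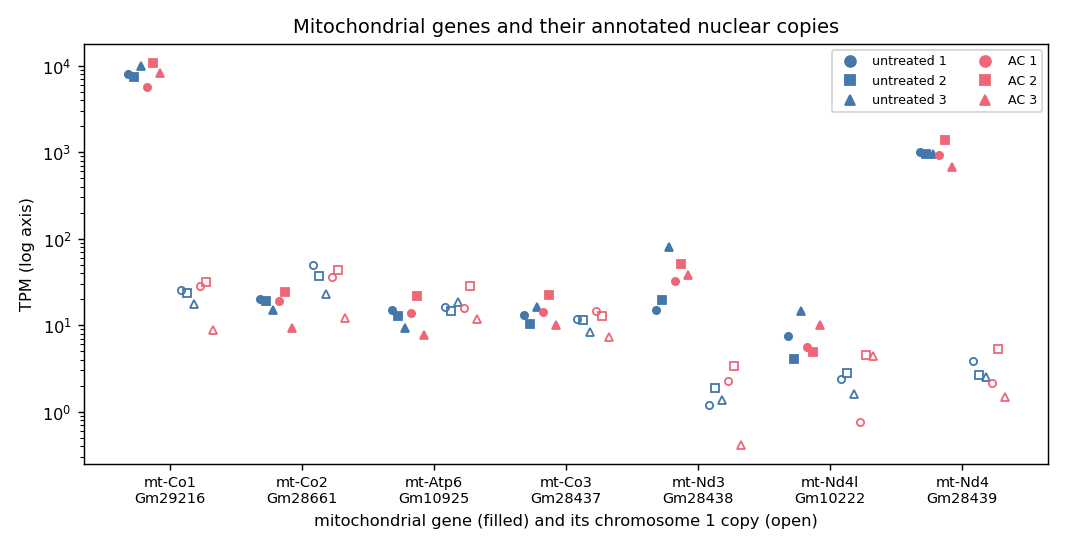
Level in TPM (logarithmic axis) of 7 mitochondrial genes (filled) and their chromosome 1 copies (open), with 1 symbol per library (blue, untreated; red, AC pretreated; circle, square and triangle, replicates 1, 2 and 3). mt-Co1 and mt-Nd4, repeated only in part, lie far above their copies, while mt-Co2 lies below Gm28661 in all 6 libraries.

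Both ribosomal RNAs were detected in these poly(A) libraries. mt-Rnr1 (70 to 1024), the small-subunit rRNA, stood at 773, 904 and 1076 TPM without and at 1070.2, 1106 and 712 TPM with AC pretreatment (replicates 1, 2 and 3). mt-Rnr2 (1094 to 2675), the large-subunit rRNA, stood at 313, 335 and 467 TPM and at 336, 395 and 405 TPM. Both groups overlapped for both genes. The ratio of mt-Rnr2 to mt-Rnr1 lay between 0.370 and 0.435 in untreated libraries and spread from 0.314 to 0.569 in AC pretreated libraries.

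Transfer RNAs are shorter than the reads, and few reads fell on most of them. Of 22 tRNA genes, 5 had no read in any library (mt-Tf, mt-Tv, mt-Ts1, mt-Td and mt-Tk), and 4 had 1 to 6 reads in all libraries together (mt-Ti, mt-Tq, mt-Tm and mt-Tt). The 3 most abundant were genes of the light strand and held 76.3% to 89.2% of tRNA reads. mt-Tp (15356 to 15422), the proline tRNA gene, had the steadiest level of all members, at 507, 474 and 559 TPM without and at 461, 614 and 502 TPM with AC pretreatment (replicates 1, 2 and 3), a coefficient of variation of 11.1% over the 6 libraries. mt-Tc (5192 to 5257), the cysteine tRNA gene, stood at 512, 414 and 192 TPM and at 459, 379 and 95.9 TPM. Its lowest values were those of replicate 3 in each group, the libraries in which the placental markers were at 0. The same was seen for mt-Nd4, mt-Co2 and mt-Atp6 and for the pseudogenes Gm28661, Gm28437, Gm29216 and Gm28439. The part of what sets those libraries apart was not tested. mt-Tn (5089 to 5159), the asparagine tRNA gene, stood at 174, 204 and 426 TPM and at 171, 219 and 205 TPM, with untreated replicate 3 apart from the rest. mt-Tl2 (11671 to 11741), a leucine tRNA gene of the heavy strand, had 15 to 53 reads per library and stood at 29.4, 22.1 and 117 TPM and at 45.0, 70.1 and 42.5 TPM. The other 13 tRNA genes with a read had means of 0.336 to 43.6 TPM and at most 49 reads in a library. The 8 tRNA genes of the light strand together held 80.1% to 91.8% of tRNA reads. As the strand setting is not known, reads of the opposite precursor over these genes cannot be told apart from their own.

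The comparison of the groups asked whether mitochondrially encoded transcripts differ between BMDM libraries with and without AC treatment. Summed over all 37 genes they stood at 18237, 17688 and 21823 TPM without and at 15598, 25116 and 17219.6 TPM with AC pretreatment (replicates 1, 2 and 3). The AC libraries included both the lowest and the highest of the 6, and the groups overlapped. The means were 19249 ± 2245 and 19311 ± 5092 TPM (SD, n = 3 each). The mean log2 values differed by -0.02, AC pretreated minus untreated (exact permutation p = 0.9, 2-sided, where 3 against 3 cannot go below 0.1). Among replicates 1 and 2, the difference was 0.14 (exact permutation p = 1.0, 2 against 2), and between the replicate 3 libraries -0.34, with no test. Without AC replicate 2, which had the highest sum and also the highest placental level, it was -0.23 (exact permutation p = 0.2, 2-sided). The part of that library's other transcripts in its mitochondrial level was not tested.

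**Figure D4:**
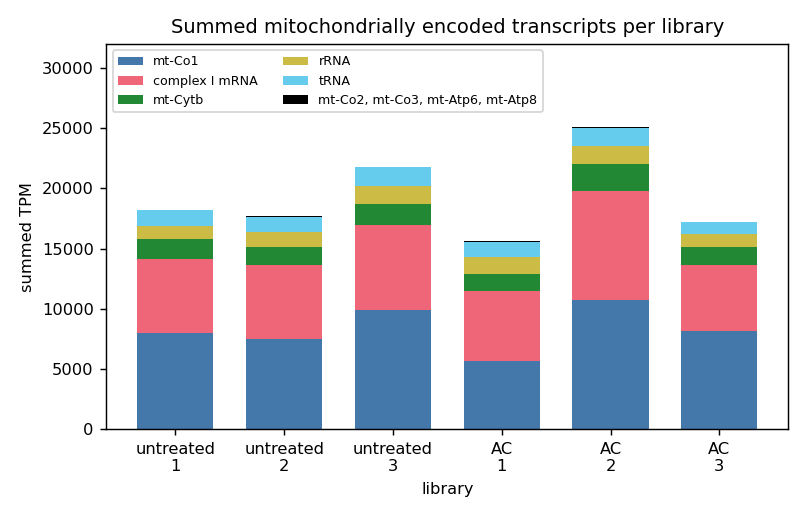
Summed TPM of the mitochondrially encoded transcripts in each library, stacked by gene class, with bars starting at 0. AC replicate 2 was highest at 25116 TPM and AC replicate 1 lowest at 15598 TPM, and mt-Co1 made up 36.4% to 47.2% of each bar.

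For single genes, limma-trend was fitted on log2(TPM + 1) over the 12603 genes that reached 1 TPM in 3 or more libraries, with Benjamini-Hochberg adjustment over all of them. Of the 37 members 27 passed that filter (12 protein-coding, 2 rRNA and 13 tRNA genes). Of those 27, 0 had an adjusted p under 0.05 by limma, where 0.0% of all tested genes did. At an unadjusted p under 0.05 there was 1 member and 164 genes in all (1.3%). Groups did not overlap for 0 of 27 members and for 4.42% of all tested genes. A higher mean log2 level after AC pretreatment was seen for 18 of 27 members against 29.4% of all tested genes, and a lower one for 9 against 70.6%. The median log2 difference was 0.05 over the tested members and -0.07 over all tested genes. Members share reads, precursors and libraries, so their common side is not evidence from independent genes. With median-of-ratios scaling, 19 members were higher and 8 lower, while 52.6% of all tested genes were lower.

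The intervals limit how large a difference could be. For 8 of the 9 abundant genes the 95% interval of the log2 difference lay inside 2-fold. mt-Co1 differed by -0.09 ± 0.25 (SE; interval -0.66 to 0.48), mt-Nd1 by 0.06 ± 0.21 (interval -0.42 to 0.54) and mt-Cytb by 0.03 ± 0.20 (interval -0.42 to 0.49). mt-Nd2, mt-Nd4 and mt-Nd6 differed by 0.03, -0.03 and 0.13, and the rRNAs mt-Rnr1 and mt-Rnr2 by 0.05 and 0.04. mt-Nd5 was the exception, at -0.23 ± 0.36 with an interval of -1.05 to 0.59. Its difference turned to 0.23 without AC replicate 1. In the repeated stretch, mt-Co2, mt-Atp6 and mt-Co3 differed by -0.15, 0.13 and 0.17, mt-Nd4l by -0.21 and mt-Nd3 by 0.46, with an interval for mt-Nd3 of -0.79 to 1.71. The TPM means of mt-Nd3 were 38.2 ± 36.7 and 40.6 ± 9.49 (SD, n = 3 each), and untreated replicate 3 set the first of them. Without that library, the log2 difference of mt-Nd3 was 1.19 (limma, adjusted p = 1.0), without untreated replicate 1 it was 0.0038, and between the replicate 3 libraries alone it was -1.05, with no test.

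**Figure D5:**
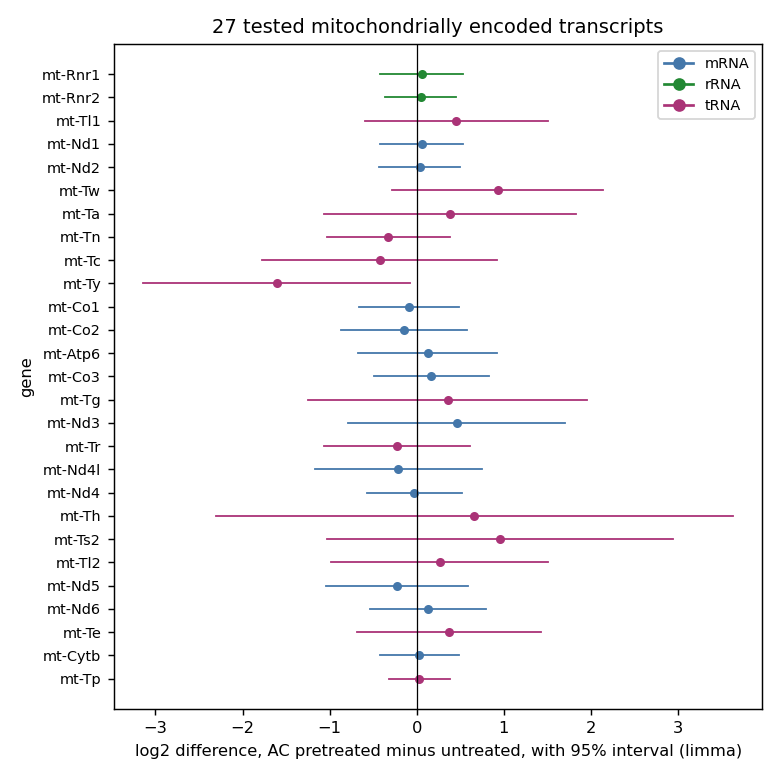
Log2 difference of the 27 tested members (points; horizontal axis, the AC mean less the untreated mean of log2(TPM + 1)) with its 95% interval from limma, coloured by RNA class and in genome order. The intervals of the mRNA and rRNA genes all include 0, and that of mt-Ty, with 62 reads in 6 libraries, does not before adjustment.

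Differences of tRNA genes were wider, in both directions, from -1.61 to 0.96, with a median SE of 0.54. mt-Tp, mt-Tc, mt-Tn and mt-Tl2 differed by 0.03, -0.43, -0.33 and 0.26. The member with an unadjusted p under 0.05 was mt-Ty, the tyrosine tRNA gene, named here after its values were seen. It had 11, 16 and 17 reads in untreated and 5, 12 and 1 reads in AC pretreated replicates 1, 2 and 3, which gave 22.8, 22.0 and 39.7 TPM and 8.23, 26.2 and 2.15 TPM. The groups overlapped through AC replicate 2. The log2 difference of -1.61 ± 0.67 (adjusted p = 1.0 by limma) ranged from -2.39 to -0.83 on leaving out 1 library, and 0.881% of all tested genes were lower at such a p.

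The means of the class sums and ratios differed between the groups by less than the SD among AC libraries. For the complex I and complex IV shares and the ratio of tRNA to mRNA, they differed by more than the SD among untreated libraries. The SD was larger among AC than among untreated libraries for 11 of 13 sums and ratios of classes. Over these 13 sums and ratios of classes, exact permutation p-values lay between 0.4 and 1.0 (2-sided), all with an adjusted p of 1.0, and 0 had groups that did not overlap. Complex I genes made up 38.6, 40.8 and 37.5% of mRNA TPM in untreated and 45.1, 41.1 and 36.2% in AC pretreated replicates 1, 2 and 3. Complex IV genes, nearly all of it mt-Co1, made up 51.0, 49.3 and 53.2% and 44.2, 48.8 and 53.9%. Each AC library thus lay outside the untreated range in both shares, with AC replicates 1 and 3 at the 2 ends and AC replicate 2 just beyond that range. mt-Cytb held a steady 9.26% to 10.6% of mRNA TPM in all 6 libraries. The ratio of mt-Nd6 to the summed heavy-strand mRNAs was 0.0782, 0.109 and 0.0811 in untreated and 0.138, 0.109 and 0.0647 in AC pretreated replicates 1, 2 and 3, again with AC replicates 1 and 3 at the ends. The ratio of rRNA to mRNA was 0.0687 to 0.0823 in untreated and 0.0680 to 0.109 in AC pretreated libraries. The ratio of tRNA to mRNA was 0.0815 to 0.0843 and 0.0646 to 0.0986. AC replicate 1 was the highest library in the ratios of mt-Nd6, rRNA and tRNA to mRNA, and AC replicate 3 had the highest levels of the abundant noncoding RNAs Gm23935, Malat1 (1036 against 163 to 415 TPM elsewhere) and Neat1 (382 against 193 to 285 TPM). The part of those RNAs in the make-up was not tested.

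Nuclear genes that act on mitochondrial RNA were counted in lists, where 70.6% of all tested genes had lower means and the median log2 difference was -0.07. In every list 0 members passed by limma. Of 20 tested genes of mitochondrial DNA transcription and replication, 6 had higher and 14 lower means (9 lower without AC replicate 1 and 11 with median-of-ratios scaling), with a median of -0.08. Mgme1, an exonuclease gene of mitochondrial DNA maintenance, stood at 16.5, 14.1 and 16.6 TPM without and at 12.0, 13.7 and 12.2 TPM with AC pretreatment (replicates 1, 2 and 3), a log2 difference of -0.29 ± 0.16. Tefm, which encodes the elongation factor of the mitochondrial RNA polymerase, stood at 19.7, 20.9 and 24.4 TPM and at 18.5, 16.7 and 18.4 TPM, a difference of -0.26 ± 0.15. For both genes each AC library lay below each untreated one at this scaling. Groups did not overlap for 3 of the 20 genes, against 4.42% of all tested genes. With median-of-ratios scaling, the groups of both genes overlapped, and the log2 differences were -0.22 for Mgme1 and -0.19 for Tefm. Of 34 tested genes of mitochondrial RNA processing, modification and decay, 11 were higher and 23 lower (18 with median-of-ratios scaling), with a median of -0.08, and 0 had groups without overlap. Elac2, which encodes the nuclease that cuts the 3′ ends of tRNAs from the precursors, averaged 22.5 ± 1.61 and 19.3 ± 1.27 TPM, and Trit1, a tRNA-modifying enzyme gene, 24.6 ± 2.99 and 20.7 ± 1.63 TPM (SD, n = 3 each).

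Of 37 tested genes of mitochondrial translation and complex assembly, 10 were higher and 27 lower, with a median of -0.06. With median-of-ratios scaling 18 of the 37 were lower, and without AC replicate 3, 20 were. At the TPM scaling, groups did not overlap for 3 of the 37, against 4.42% of all tested genes. Cox15, which encodes an enzyme of the heme A that cytochrome c oxidase carries, averaged 26.9 ± 2.88 and 21.6 ± 2.37 TPM, and Cox20, a chaperone gene for the product of mt-Co2, 6.38 ± 0.853 and 3.19 ± 1.33 TPM. The log2 means of Cox20 differed by -0.87 ± 0.28 (limma, adjusted p = 1.0). Of 13 tested regulators of mitochondrial biogenesis, 2 were higher and 11 lower (median -0.06; 6 lower without AC replicate 1 and 6 with median-of-ratios scaling), with Sirt3 at -0.21 ± 0.19 and Tfe3 at -0.10 ± 0.15. Of 20 tested genes of mitochondrial dynamics and mitophagy, 5 were higher and 15 lower (median -0.04; 9 lower without AC replicate 1 or without untreated replicate 3, 8 with median-of-ratios scaling), with Mief2 at -0.29 ± 0.17 and Calcoco1 at -0.17 ± 0.16. Of 35 tested nuclear-encoded subunits that work beside the mitochondrial ones, 4 were higher and 31 lower, with a median of -0.06. At the TPM scaling, groups did not overlap for 3 of the 20 genes of dynamics and mitophagy, 0 of the 13 regulators and 0 of the 35 subunits. Mief2 and Sqstm1 were among those genes of dynamics and mitophagy, and with median-of-ratios scaling their groups overlapped. Sdha, the flavoprotein gene of complex II, averaged 169.6 ± 11.4 and 153 ± 14.5 TPM, and Uqcrc2 of complex III 96.5 ± 6.83 and 85.0 ± 6.64 TPM. The count of 31 rests on AC replicate 3 and on the scaling, since 13 of 35 were lower without that library and 17 of 35 with median-of-ratios scaling. Summed, these subunits stood at 6955, 7176 and 6871 TPM without and at 8284, 6111 and 5787 TPM with AC pretreatment (replicates 1, 2 and 3). AC replicate 1 was highest in this nuclear sum and lowest in the mitochondrial sum, while AC replicate 2, the highest in the mitochondrial sum, was below every untreated library in the nuclear one.

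Counts of markers of other cell types were low and are given because libraries differed in them. Of 7 T cell markers 1 reached 1 TPM (summed level 9.78 to 15.9 TPM without and 10.8 to 17.9 TPM with AC pretreatment), and of 4 B cell and 4 fibroblast markers 0 did. Neutrophil markers summed to 21.6 to 49.7 and 22.1 to 37.2 TPM and epithelial ones to 0.650 to 1.56 and 2.04 to 4.70 TPM, with the epithelial marker Epcam at 0. Erythroid markers summed to 0.0652 to 3.47 and 0.357 to 17.5 TPM, with the highest level in AC replicate 2, the library highest in mitochondrial transcripts. Their part in the mitochondrial levels was not tested.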

How the data were processed

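The table that the authors deposited is named as TPM and holds 1 signal per gene in each library. Its columns sum to 54732 to 92831, so they are not scaled for library size. The deposited signal times a gene's exon length (exons merged, GENCODE release 21 for mouse, mm10), over 8.57, came out as whole reads in each library for 98.4% of the 23870 genes that had reads and a length (tolerance 0.02 reads). Tools listed per the submitters' processing notes are featureCounts 2.0.3, Subread and STAR 2.7.10a, with the mm10 build. Annotation, strand setting and handling of reads with several matches are not given in the sources used.

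Each library was rescaled to sum to 1000000. Testing took genes reaching 1 TPM in 3 or more libraries, by limma 3.58.1 under R 4.3.3 (eBayes with trend) on log2(TPM + 1), 2-sided, at 0.05 after Benjamini-Hochberg adjustment. The test had been planned for TPM. Sums and ratios were compared with exact permutation tests. Mitochondrial transcripts were aligned with annotated nuclear transcripts by blastn 2.17.0. The limma step was tried on simulated counts with the same dispersion for all genes and no outlying library. That trial therefore does not measure the error rates of the fit in these libraries. Replicate libraries differed by far more than sampling noise (chi-square per degree of freedom 19.5 to 130.0), so none was counted as a duplicate. Named genes were all members and, from each nuclear list, the 2 with the smallest unadjusted p, and also Sqstm1 (the rule allows up to 4). Members and lists were chosen with earlier results of these data known. Alternatives covered the pseudocount, filter, scaling, variance trend, voom, replicate block and left-out libraries. Python 3.11.15 ran the rest.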

Additional observations from a re-analysis of the deposited data

How the results depend on the processing

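No member passed the adjusted threshold of limma under any alternative, and no difference of a member was called, so signs near 0 turned readily. Over all genes 0 passed under all alternatives run for them but 1, the fit without a variance trend, in which 1 did (Gm22279, a small RNA gene named after its values were seen). Between libraries of the same replicate number, correlations of values centred within each group were -0.06, 0.0098 and 0.17 for numbers 1, 2 and 3. AC replicate 1 correlated best with untreated replicate 2 (0.34). With 3 libraries per group, such correlations cannot exclude that the replicate numbers pair the libraries. The placental markers were at 0 only in replicate 3 of both groups. With the replicate block, 0 of 12603 genes and 0 members passed and the summed difference was -0.02, as without it. The summed difference of -0.02 turned to 0.0487 with median-of-ratios scaling, 0.012 without Gm23935 in the total and 0.14 among replicates 1 and 2, and, in sums chosen after seeing the data, to 0.026 outside the repeated stretch and 0.022 without mt-Co1. Median-of-ratios scaling also turned the sums of mRNA (0.0479), light-strand (0.0587) and heavy-strand members (0.0421). mt-Nd4 turned to 0.0432 with that scaling, 0.0067 without Gm23935 and 0.016 with limma-voom on recovered reads. Among replicates 1 and 2, mt-Co1 (0.0105), mt-Co2 (0.11), mt-Nd4 (0.20) and mt-Tn (0.0347) turned. Between the replicate 3 libraries, mt-Rnr1 (-0.59), mt-Rnr2 (-0.21), mt-Nd1 (-0.40), mt-Nd2 (-0.28), mt-Atp6 (-0.25), mt-Co3 (-0.65), mt-Nd3 (-1.05), mt-Nd5 (0.0541), mt-Nd6 (-0.61), mt-Cytb (-0.22), mt-Tp (-0.15), mt-Tl2 (-1.44), Elac2 (0.0087), Tfe3 (0.20) and Calcoco1 (0.17) turned. Counts of lower means became 6 of 13 regulators of biogenesis, 8 of 20 genes of dynamics and 17 of 35 core subunits with median-of-ratios scaling, and 9 of 20 genes of dynamics with voom. The causes were not tested.

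Leaving out 1 library in turn gave -0.23 to 0.12 for the summed difference (above 0 without untreated replicate 3, AC replicate 1 or AC replicate 3), -0.24 to 0.15 for mRNA, -0.0551 to 0.20 for rRNA, -0.29 to 0.0378 for tRNA, -0.23 to 0.25 for light-strand and -0.23 to 0.14 for heavy-strand sums. Ratios ranged from -0.12 to 0.22 (rRNA to mRNA), -0.27 to 0.16 (mt-Rnr2 to mt-Rnr1), -0.0748 to 0.47 (mt-Nd6 to heavy-strand mRNA) and -0.30 to 0.0062 (tRNA to mRNA), and shares of mRNA from -0.0143 to 0.14 (complex I), -0.14 to 0.0039 (complex IV) and -0.14 to 0.44 (complex V). Single genes ranged from -0.31 to 0.15 (mt-Co1), -0.42 to 0.23 (mt-Co2), -0.11 to 0.42 (mt-Co3), -0.21 to 0.49 (mt-Atp6), -0.18 to 0.17 (mt-Cytb), -0.16 to 0.18 (mt-Nd1), -0.19 to 0.15 (mt-Nd2), 0.0038 to 1.19 (mt-Nd3), -0.29 to 0.22 (mt-Nd4), -0.61 to 0.21 (mt-Nd4l), -0.48 to 0.23 (mt-Nd5), -0.16 to 0.46 (mt-Nd6), -0.0623 to 0.26 (mt-Rnr1), -0.0676 to 0.22 (mt-Rnr2), -0.85 to 0.28 (mt-Tc), -0.20 to 0.98 (mt-Tl2), -0.58 to 0.0618 (mt-Tn) and -0.0894 to 0.12 (mt-Tp). Counts of lower means ranged from 9 to 16 (transcription and replication) and 6 to 13 (biogenesis), both lowest without AC replicate 1, from 20 to 30 (translation and assembly), from 9 to 17 (dynamics; 9 without AC replicate 1 and without untreated replicate 3) and from 13 to 34 (core subunits, lowest without AC replicate 3). Depth limits the tRNA genes, most with fewer than 50 reads per library, and mt-Atp8.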
